A study of Mus musculus with 59 samples.

Results

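Gene expression was compared between the prefrontal cortex of 10 fluoxetine-treated Dyrk1a+/I48X mice and that of 10 vehicle-treated WT mice, with 5 females and 5 males in each group. The members were taken by their labels for genotype, drug and sex, which gave 20 of the 59 RNA-seq libraries, and sex was kept as a block in the tests. Dyrk1a+/I48X mice, called Het here, carry 1 mutated copy of Dyrk1a. Mice of both groups were of the C57BL/6J strain. Pups received fluoxetine or vehicle from postnatal day 3 to day 24, for 3 weeks, through the milk of the dam, and their cortex was taken on day 25. Genotype and drug both differed between the groups, so the comparison measures how far treated mutants lay from vehicle-treated WT mice. The 10 vehicle-treated Het mice and the 9 fluoxetine-treated WT mice, 5 females and 4 males, are given beside them where a level in each group is needed. The labels name no litters and no drug level per pup, and nursed littermates are exposed together. The p-values here therefore refer only to the variation among the mice sampled.

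Dyrk1a encodes a protein kinase that acts on transcription, splicing and the cell cycle in developing neurons, and human loss-of-function mutations cause a syndrome with intellectual disability, often with autism. Fluoxetine blocks the serotonin transporter, and it is used against depression and anxiety. The young brain makes its own cholesterol, since plasma cholesterol does not cross into it, and the enzymes of that pathway are switched together by the transcription factor encoded by Srebf2, which is released from the endoplasmic reticulum when sterol is low. Immediate early genes are transcribed within minutes of neuronal firing without new protein synthesis, and their transcripts fade quickly.

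Levels are normalised counts, that is, counts divided by a size factor of the library. The totals recovered from them ran from 25722797 to 32037662 counts in Het fluoxetine mice and from 24391022 to 31329276 in WT vehicle mice. Markers of cortical projection neurons were present throughout: Slc17a7, the glutamate transporter of cortical excitatory vesicles, had a lowest, median and highest value of 34059.9, 42304 and 55403 in Het fluoxetine mice, against 34988, 45851 and 49783 in WT vehicle mice. Het fluoxetine males 3 and 4 stood apart on the first principal component of the 20 libraries, which held 28.4% of the variance: they lay at 94.97 and 61.21, and the other 18 libraries at 6.913 or below. Results are therefore given with all 20 mice and without these 2 males. Markers of the olfactory bulb, a neighbouring tissue, also differed between libraries. The summed level of its 16 markers had a lowest, median and highest value of 3763, 20115 and 34928 normalised counts in Het fluoxetine mice, against 3085, 4217 and 32044 in WT vehicle mice, and no marker was at 0 in any library. All 5 Het fluoxetine females and male 2 were high, as were WT vehicle females 1 and 4, and males 3 and 4 were low with 3955 and 3763. For some results the value with the mean of the marker list as a covariate is given beside them. Of the calls over 20 mice given below, 39 were kept with the same sign with that covariate, and 1164 were lost. A result given without the covariate can therefore move with it too.

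Dyrk1a itself was examined first. Its lowest, median and highest values were 2182, 2348 and 4214 in Het fluoxetine mice, against 2163, 2221 and 2327 in WT vehicle mice. The ranges overlapped, and only males 3 and 4, with 4214 and 3278, exceeded 2442. The log2 fold change, Het fluoxetine over WT vehicle on the log2(value + 1) scale, was 0.19 ± 0.08 (limma adjusted p = 0.163), and 0.06 ± 0.02 without those 2 males (limma adjusted p = 0.132). The value after ± is the standard error for every log2 fold change given. These values add up reads of the mutant and the normal transcript, and so give no check of the genotype labels.

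Sterol and immediate early genes were lower in fluoxetine-treated mutants than in vehicle-treated WT mice, interferon-stimulated genes were higher, and synaptic genes were lower by smaller amounts. Of 17313 genes tested, 515 were higher in Het fluoxetine mice, which is 2.97%, and 688 were lower, which is 3.97%, at a limma adjusted p under 0.05 (1203 in all, 6.95%). Without males 3 and 4, 674 of 17197 were higher (3.92%) and 812 lower (4.72%), 1486 in all (8.64%). The 2 fits shared 847 calls with the same sign, 361 higher and 486 lower. With the olfactory bulb covariate the counts were 22 higher (0.127%) and 32 lower (0.185%) over 20 mice (0.312% in all), and 12 higher (0.0698%) and 39 lower (0.227%) without the 2 males (0.297% in all). At an unadjusted p under 0.05 limma had 4605 genes over 20 mice and 4670 with the covariate. Without the 2 males it had 4937, and 1836 with the covariate. The median log2 fold change of all genes tested was 0.00 in each of these fits. Leaving out single libraries moved the count of 1203 between 239, without WT vehicle male 2, and 2248, without WT vehicle female 4.

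**Figure D1:**
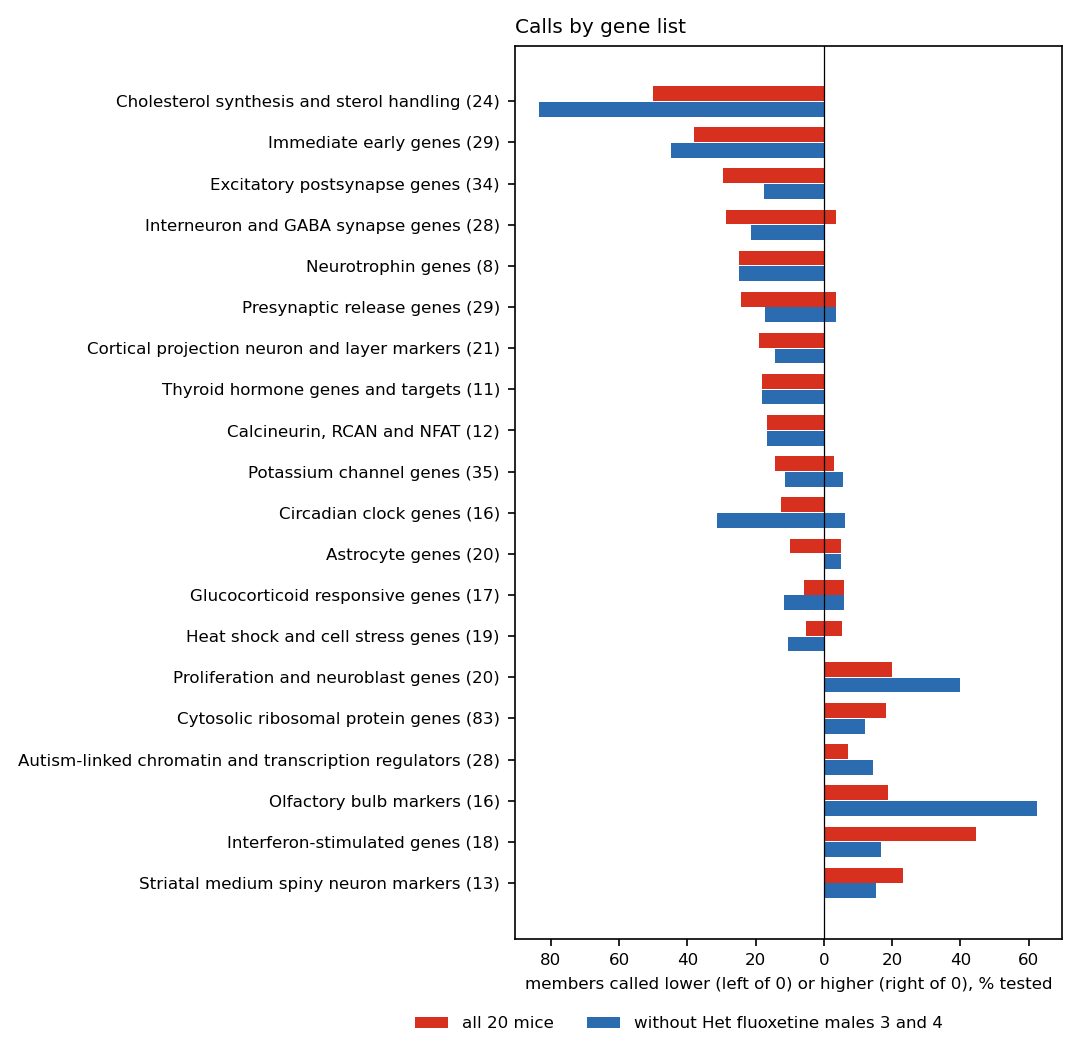
Share of the tested members of each gene list that were lower (left of 0) or higher (right of 0) in Het fluoxetine than in WT vehicle mice at a limma adjusted p under 0.05, in percent, with the number tested in parentheses. Red bars are all 20 mice and blue bars are without Het fluoxetine males 3 and 4; sterol genes reach furthest to the left, with 12 of 24 and 20 of 24 lower.

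Genes of cholesterol synthesis and sterol handling were lower in Het fluoxetine mice. Of 24 members tested, 12 fell and none rose, against 3.97% of all genes lower, and their median log2 fold change was -0.24. Without males 3 and 4, 20 of 24 fell, against 4.72% of all genes, and the median was -0.26. The 5 promoters printed with the results below come from members of the sterol and immediate early lists that fell. For the sterol genes Hmgcs1, Cyp51 and Idi1 they are the 250 bases before the gene's start in RefSeq on GRCm38.p6, at chr13:119690101-119690350 on the plus strand, chr5:4104698-4104947 on the minus strand and chr13:8885356-8885605 on the plus strand, 5′ to 3′ in the gene's direction:
Hmgcs1: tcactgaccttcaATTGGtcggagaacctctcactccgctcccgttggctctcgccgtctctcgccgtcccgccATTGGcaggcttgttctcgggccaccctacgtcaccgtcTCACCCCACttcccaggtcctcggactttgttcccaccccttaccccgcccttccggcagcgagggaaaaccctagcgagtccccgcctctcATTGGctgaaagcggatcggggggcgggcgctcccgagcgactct
Cyp51: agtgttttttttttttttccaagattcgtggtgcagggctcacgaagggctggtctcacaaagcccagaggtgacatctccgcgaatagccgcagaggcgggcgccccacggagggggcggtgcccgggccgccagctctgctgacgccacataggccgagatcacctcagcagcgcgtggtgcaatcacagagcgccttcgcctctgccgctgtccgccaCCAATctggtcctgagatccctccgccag
Idi1: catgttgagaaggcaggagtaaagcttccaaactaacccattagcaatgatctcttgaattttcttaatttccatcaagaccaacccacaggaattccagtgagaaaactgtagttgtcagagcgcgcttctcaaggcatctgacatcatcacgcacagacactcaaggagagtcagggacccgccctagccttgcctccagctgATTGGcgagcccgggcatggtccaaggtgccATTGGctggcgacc
Capitals mark CCAAT on either strand (ATTGG on the reverse), the letters of the box bound by the factor NF-Y, and TCACNCCAC on either strand, a sterol regulatory element, which do not overlap here. CCAAT was in 16 of the 16 sterol genes with a promoter entry, against 33.8% of all 32851 promoters of that length. TCACNCCAC was in 1 of the 16, Hmgcs1, against 1.05% of all. A listed gene counted when any of its promoter entries matched, while the share over all is of single entries, so the shares differ in unit. A match describes the letters only.

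Stard4, which encodes a carrier that moves sterol between membranes, had a lowest, median and highest value of 675, 752 and 906 normalised counts in Het fluoxetine mice, against 872, 1041 and 1274 in WT vehicle mice. Only Het male 3 with 906 reached into the WT range, whose lowest mouse was male 4. The log2 fold change was -0.49 ± 0.06 over 20 mice (limma adjusted p = 0.00201) and -0.53 ± 0.06 without males 3 and 4 (limma adjusted p = 0.000238).

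Cyp51, the lanosterol demethylase whose promoter is printed above, had 1576, 1942 and 2236 in Het fluoxetine mice, lowest, median and highest, against 2342, 2529 and 2896 in WT vehicle mice. Every Het mouse lay below every WT mouse. The log2 fold change was -0.40 ± 0.05 (limma adjusted p = 0.00305), and -0.40 ± 0.05 without the 2 males (limma adjusted p = 0.00131). Squalene epoxidase, Sqle, ran over 1459, 1614 and 1822 in Het fluoxetine mice, against 1926, 2042 and 2436 in WT vehicle mice, again with no overlap. It fell, with -0.37 ± 0.05 as its log2 fold change (limma adjusted p = 0.00317).

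Hmgcs1, a synthase of the mevalonate pathway, had 6176, 8059.7 and 9303 in Het fluoxetine mice, against 9290.1, 11090.5 and 12728 in WT vehicle mice. Male 3 with 9303 was the highest Het mouse and just passed the lowest WT mouse, female 4 with 9290.1. The log2 fold change was -0.47 ± 0.07 over 20 mice (limma adjusted p = 0.00492) and -0.45 ± 0.06 without the 2 males (limma adjusted p = 0.00131). Stard4, Cyp51, Hmgcs1, Sqle and Idi1 were the 5 sterol genes that fell with the olfactory bulb covariate over 20 mice, with log2 fold changes of -0.44, -0.41, -0.39, -0.30 and -0.44. Without the 2 males and with the covariate, 6 fell, among them Stard4, Cyp51, Hmgcs1, Insig1 and Hsd17b7.

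**Figure D2:**
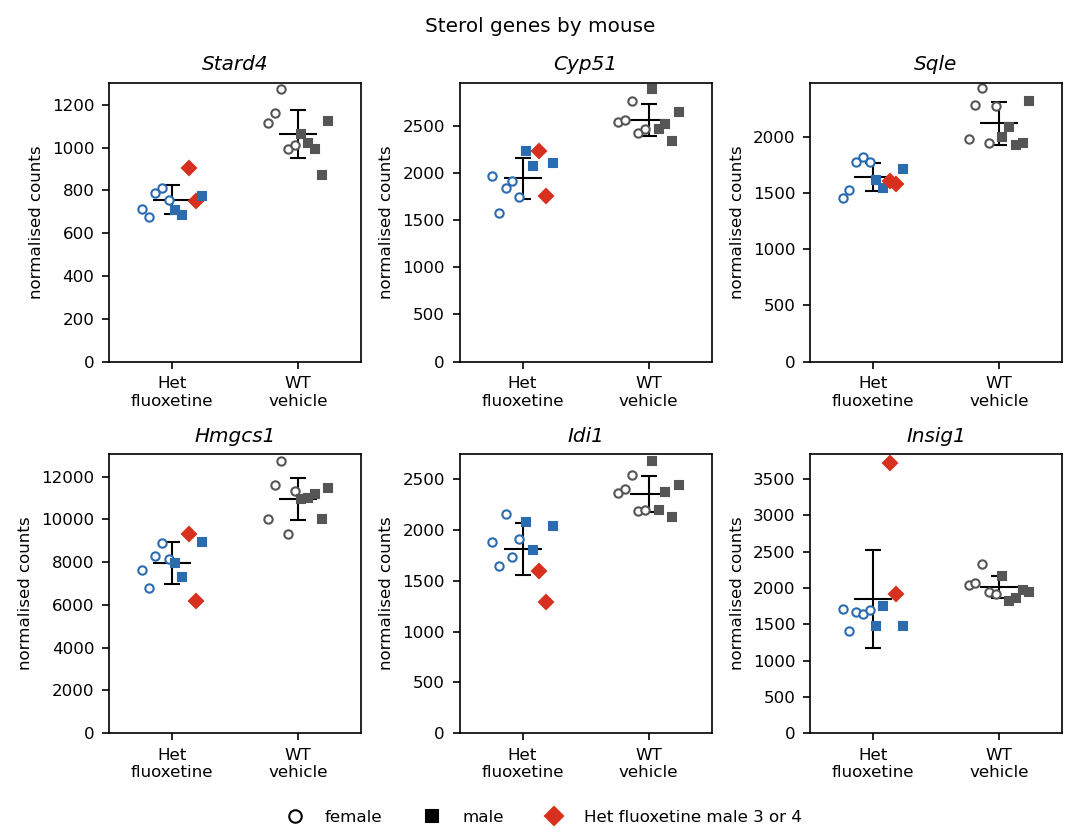
Normalised counts of 6 sterol genes in each mouse, with Het fluoxetine on the left and WT vehicle on the right of each panel (open circles females, squares males, red diamonds Het fluoxetine males 3 and 4; lines show the mean and SD, n = 10 each). The groups do not overlap for Cyp51 and Sqle, and male 3 is the highest of all mice for Insig1.

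Other members that fell over 20 mice were Idi1, the isomerase of the isoprenoid step (-0.39 ± 0.07, limma adjusted p = 0.0137), Sc5d, an enzyme of the late steps (-0.28 ± 0.05, limma adjusted p = 0.00768), and Srebf2 itself (-0.19 ± 0.04, limma adjusted p = 0.0161). Fdps, Msmo1, Nsdhl, Mvk and Tm7sf2 completed the 12, with log2 fold changes between -0.36 and -0.26. These genes were chosen after their values were seen. For 8 members the call appeared when males 3 and 4 were left out.

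Insig1, which holds the sterol-sensing complex in the endoplasmic reticulum, had 1408, 1683 and 3720.4 in Het fluoxetine mice, against 1823, 1963 and 2326 in WT vehicle mice, and male 3 was the highest of the 20. Without males 3 and 4 the other 8 lay below every WT mouse, and the log2 fold change was -0.33 ± 0.05 (limma adjusted p = 0.00217), against -0.18 ± 0.12 over 20 mice (limma adjusted p = 0.359). Hsd17b7, Fdft1, Mvd and Dhcr7 fell in the same way, with -0.31, -0.35, -0.25 and -0.18 without the 2 males. Pmvk, Lss and Ebp did not pass in either fit.

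**Figure D3:**
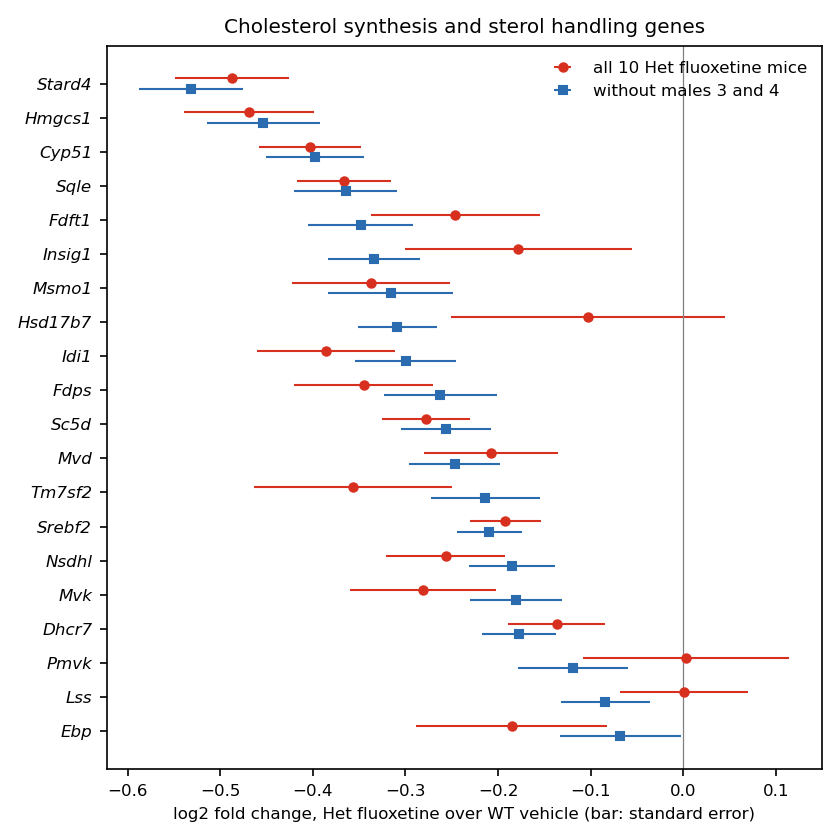
Log2 fold change of 20 of the 24 sterol genes, Het fluoxetine over WT vehicle, with its standard error. Red circles are all 10 Het fluoxetine mice and blue squares are without males 3 and 4 (10 WT vehicle mice in both); all 20 blue squares lie below 0, and Hsd17b7 has the widest bar over 20 mice.

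Sterol genes were low in the other treated or mutant groups as well. Stard4 averaged 757 ± 68.6 in Het fluoxetine, 939 ± 87.6 in Het vehicle and 766 ± 58.8 in WT fluoxetine mice, and 1063 ± 111 in WT vehicle mice (SD, n = 10, 10, 9 and 10). In 1 fit to these 39 libraries its log2 fold change was -0.18 ± 0.06 for Het vehicle over WT vehicle (limma adjusted p = 0.0441) and -0.47 ± 0.06 for WT fluoxetine over WT vehicle (limma adjusted p = 2.24e-05). It was -0.31 ± 0.06 for Het fluoxetine over Het vehicle (limma adjusted p = 0.00444) and -0.02 ± 0.06 for Het fluoxetine over WT fluoxetine (limma adjusted p = 0.922). Over the 24 sterol genes, 8 fell in Het vehicle against WT vehicle mice (4.14% of all genes were lower), and 8 fell in WT fluoxetine against WT vehicle mice (0.284%). Het fluoxetine mice had 4 lower than Het vehicle mice (0.539%) and 0 lower than WT fluoxetine mice, where limma called 0 of 17617 genes (1945 at an unadjusted p under 0.05). These comparisons share libraries with each other and are not independent. Neither they nor the same comparisons for immediate early genes below were fitted with the olfactory bulb covariate.

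Immediate early genes were the other large group that was lower. Of 29 tested, 11 fell and none rose, with a median log2 fold change of -0.28, and 13 fell without males 3 and 4, with a median of -0.34. The backgrounds are those given for the sterol genes, 3.97% and 4.72%. With the olfactory bulb covariate 4 fell over 20 mice and 7 without the 2 males. Promoters of a pair of them, Nr4a3 and Fos, follow, at chr4:48045055-48045304 on the plus strand and chr12:85473640-85473889 on the plus strand on GRCm38.p6, from the same RefSeq table:
Nr4a3: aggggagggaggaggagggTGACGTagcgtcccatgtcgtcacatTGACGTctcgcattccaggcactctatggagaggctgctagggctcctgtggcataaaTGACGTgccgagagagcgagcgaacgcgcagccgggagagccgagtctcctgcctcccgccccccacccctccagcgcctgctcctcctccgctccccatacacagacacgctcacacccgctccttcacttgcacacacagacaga
Fos: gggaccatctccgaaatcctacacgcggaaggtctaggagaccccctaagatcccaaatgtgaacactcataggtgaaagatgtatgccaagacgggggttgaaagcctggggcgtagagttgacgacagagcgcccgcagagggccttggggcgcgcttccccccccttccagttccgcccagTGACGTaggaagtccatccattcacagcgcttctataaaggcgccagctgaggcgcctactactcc
Capitals mark TGACGT on either strand, a core of the cAMP response element bound by the activity-regulated factor CREB. It was in 9 of the 24 immediate early genes with a promoter entry (37.5%), against 6.47% of all 32851 promoters, and in 2 of the 16 sterol genes. The full palindrome TGACGTCA, which contains TGACGT, was in 2 of the 24, against 1.55% of all. CCAAT was in 9 of the 24 (37.5%). Listed genes were again counted by gene and all promoters by single entry.

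Arc, which encodes a protein that moves into active synapses and regulates glutamate receptors there, had 1306, 1875 and 3049 normalised counts in Het fluoxetine mice, lowest, median and highest, against 2462, 3959.8 and 5492 in WT vehicle mice. Het males 2 and 3, with 3049 and 2662, were the highest of their group and the 2 that entered the WT range. The log2 fold change was -0.94 ± 0.16 (limma adjusted p = 0.00768), and -1.02 ± 0.17 without males 3 and 4 (limma adjusted p = 0.00474). Arc fell in each of the 4 fits, with and without those males and the covariate.

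Nr4a3, an orphan nuclear receptor, had 365, 669 and 803 in Het fluoxetine mice, against 884, 1121 and 1518 in WT vehicle mice, with no overlap. Males 3 and 4 were its lowest mice, with 373 and 365, and the fall held without them: -0.74 ± 0.11 (limma adjusted p = 0.00177) against -0.91 ± 0.14 over 20 mice (limma adjusted p = 0.0054). Its relative Nr4a1 had 1024, 1366 and 2087 in Het fluoxetine mice, against 1643, 2358 and 2766 in WT vehicle mice. Het female 2 and male 2 reached into the WT range, and the log2 fold change was -0.72 ± 0.12 (limma adjusted p = 0.00741).

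Fos, the founding immediate early transcription factor, had 327, 599 and 906 in Het fluoxetine mice, against 528, 839 and 1415 in WT vehicle mice, and the ranges overlapped between WT male 2, the lowest WT mouse, and Het male 2, the highest Het mouse. It fell, with a fold change of -0.67 ± 0.18 on the log2 scale (limma adjusted p = 0.0329). Its partner Junb fell too (-0.57 ± 0.14, limma adjusted p = 0.0277), as did Egr4, a zinc finger factor (-0.56 ± 0.11, limma adjusted p = 0.017), and Dusp6, a phosphatase that switches off ERK (-0.55 ± 0.10, limma adjusted p = 0.00768). Spry4, another inhibitor of that pathway but no member of the list, also fell (-0.32 ± 0.05, limma adjusted p = 0.00741). Egr2, Dusp1, Egr1 and Homer1 completed the 11, and Egr1 and Homer1 did not pass without males 3 and 4, with -0.39 ± 0.12 and -0.31 ± 0.11 (limma adjusted p = 0.0521 and 0.077). Gadd45b, Egr3, Ier3 and Nab2 passed only without them.

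**Figure D4:**
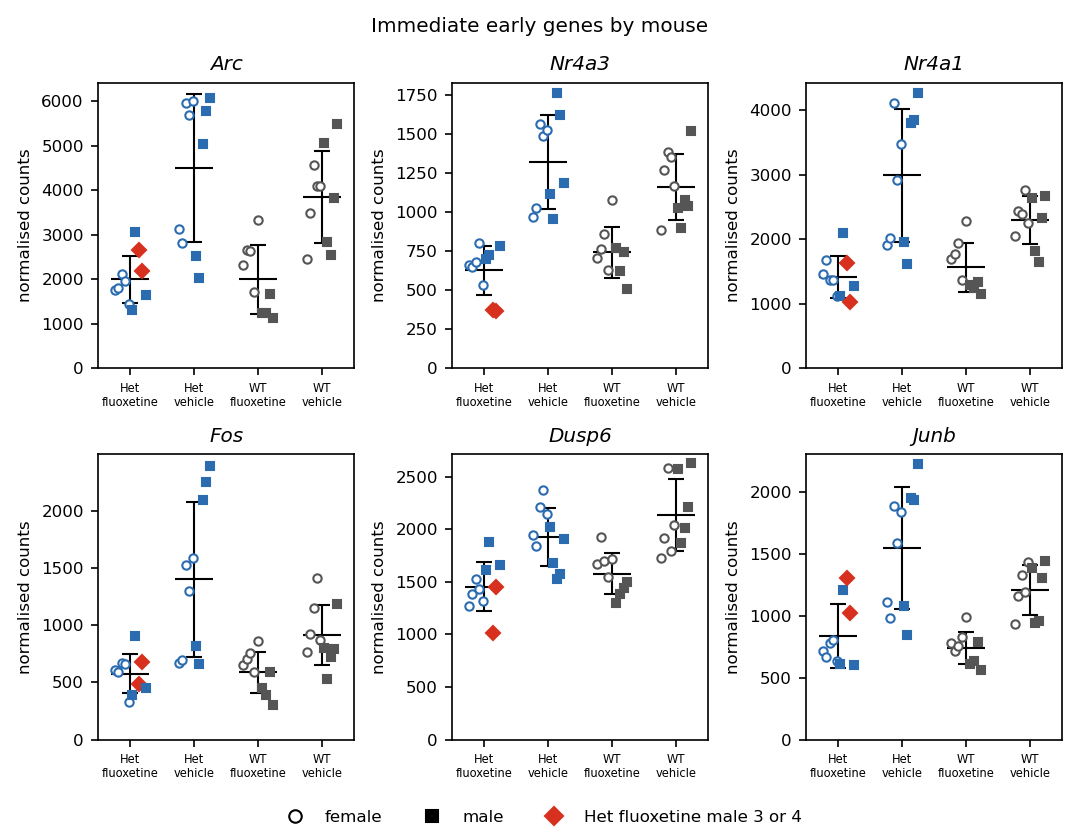
Normalised counts of 6 immediate early or activity-linked genes by mouse, from left to right Het fluoxetine, Het vehicle, WT fluoxetine and WT vehicle (open circles females, squares males, red diamonds Het fluoxetine males 3 and 4; lines show the mean and SD, n = 10, 10, 9 and 10). Both fluoxetine groups lie low for Arc and Nr4a3, and Het vehicle mice spread widest for Arc.

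In Het vehicle mice most immediate early genes were not lower than in WT vehicle mice. Arc averaged 1993 ± 536 in Het fluoxetine, 4497 ± 1666 in Het vehicle and 1993 ± 775 in WT fluoxetine mice, and 3847 ± 1031 in WT vehicle mice (SD, n = 10, 10, 9 and 10). Het vehicle over WT vehicle gave 0.17 ± 0.20 as the log2 fold change (limma adjusted p = 0.608), Het fluoxetine over Het vehicle -1.11 ± 0.20 (limma adjusted p = 0.00444), and WT fluoxetine over WT vehicle -1.05 ± 0.20 (limma adjusted p = 0.0125). Over the list of 29, 4 rose and 1 fell in Het vehicle against WT vehicle mice (4.63% and 4.14% of all genes). Het fluoxetine mice had 13 lower than Het vehicle mice (0.539%), and WT fluoxetine mice had 5 lower than WT vehicle mice (0.284%). The difference between the 2 fluoxetine effects was not past the threshold for any gene, as given with the interaction below.

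Few glucocorticoid signalling genes passed, and they went in both directions. Nr3c1, the gene of the glucocorticoid receptor, had 1718, 2181 and 2712 in Het fluoxetine mice, against 2459, 3191 and 3426 in WT vehicle mice. The overlap came from Het males 1 and 5 and WT female 4, the lowest WT mouse with 2459, and males 3 and 4 were the lowest Het mice. Its log2 fold change was -0.51 ± 0.08 (limma adjusted p = 0.0054) and -0.41 ± 0.06 without the 2 males (limma adjusted p = 0.00182), and Nr3c1 fell with the covariate in both fits. Nr3c1 averaged 2623 ± 491 in Het vehicle and 2343 ± 261 in WT fluoxetine mice (SD, n = 10 and 9).

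Fkbp5, a chaperone of the receptor that glucocorticoids induce, had 1030.2, 1207 and 8496 in Het fluoxetine mice, against 696, 832 and 956 in WT vehicle mice. No Het mouse overlapped the WT range, and males 3 and 4 lay far above the rest with 8496 and 3668. With them the log2 fold change was 0.93 ± 0.29 and did not pass (limma adjusted p = 0.0525). Without them it was smaller and passed, 0.48 ± 0.06 (limma adjusted p = 0.00131). Of 17 glucocorticoid responsive genes tested, Sult1a1, a sulfotransferase, rose (0.39 ± 0.12, limma adjusted p = 0.0469) and Pdk4, a mitochondrial kinase, fell (-0.45 ± 0.11, limma adjusted p = 0.0306) over 20 mice. Over all genes 2.97% were higher and 3.97% lower, and 1 of 17 is near those shares. Without the 2 males Fkbp5 rose and Pdk4 and Per1 fell, against 3.92% of all genes higher and 4.72% lower. The median of the list was then 0.04, against 0.23 with them. The mean of this list, in log2 units relative to the average of the 59 libraries, was 1.54 in male 3 and 0.52 in male 4, against -0.17 to 0.14 in WT vehicle mice.

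**Figure D5:**
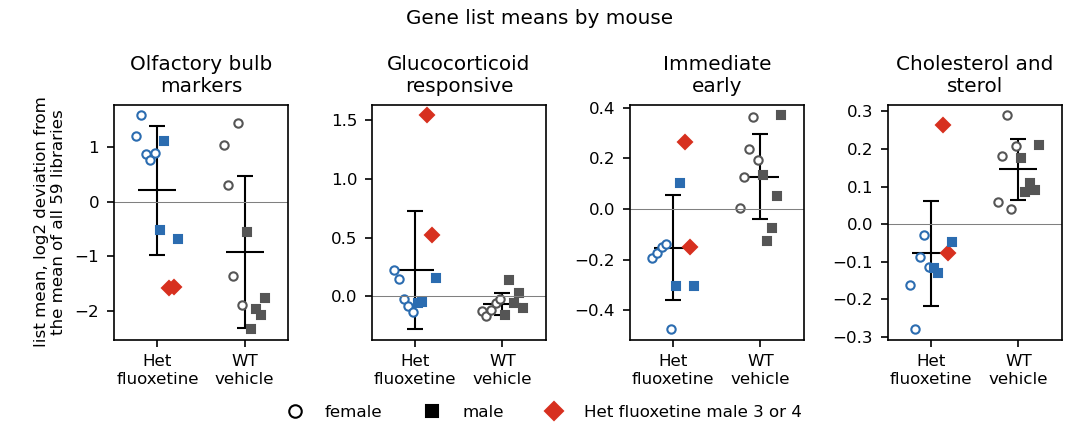
Mean of 4 gene lists in each mouse, in log2 units relative to the average of the 59 libraries, with Het fluoxetine on the left and WT vehicle on the right (open circles females, squares males, red diamonds Het fluoxetine males 3 and 4; lines show the mean and SD, n = 10 each). Males 3 and 4 are the highest mice for glucocorticoid responsive genes, and lie among the WT males for olfactory bulb markers.

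Genes induced by interferon were higher in Het fluoxetine than in WT vehicle mice. Of 18 tested, 8 rose and none fell, against 2.97% of all genes higher, and all 18 had a positive log2 fold change with a median of 0.49. Without males 3 and 4, 3 rose, against 3.92% of all genes, with a median of 0.40, and none passed with the olfactory bulb covariate in either fit. All 18 were also positive in WT fluoxetine over WT vehicle mice, with a median of 0.30, though none passed. None passed in Het fluoxetine over WT fluoxetine mice. The list mean in log2 units ran from -0.25 to 1.06 in Het fluoxetine, -0.37 to 0.02 in WT vehicle and -0.165 to 1.165 in WT fluoxetine mice. Ifit1, which binds viral RNA, had 61.2, 85.1 and 191 in Het fluoxetine mice, against 44.7, 57.8 and 69.6 in WT vehicle mice. The ranges overlapped, 2 of the 10 Het mice lay below the highest WT mouse, and male 2 was far above the other Het mice. Its log2 fold change was 0.66 ± 0.16 (limma adjusted p = 0.0274), and 0.65 ± 0.17 without males 3 and 4 (limma adjusted p = 0.0317).

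Xaf1, a gene that promotes cell death, rose by 0.58 ± 0.15 (limma adjusted p = 0.0296), and Rsad2, an antiviral enzyme, by 0.70 ± 0.18 (limma adjusted p = 0.0324). These and Ifit1 were the 3 that passed without the 2 males. Usp18, which removes the ubiquitin-like protein ISG15, rose by 0.71 ± 0.19 over 20 mice (limma adjusted p = 0.0369) and had 0.61 ± 0.20 without the 2 (limma adjusted p = 0.0604). These genes are read by few counts: Rsad2 averaged 57.5 ± 26.8 in Het fluoxetine and 33.2 ± 7.85 in WT vehicle mice (SD, n = 10 each).

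Complement component C4b, a gene of innate immunity made by glia, had 352, 694 and 1009.8 in Het fluoxetine mice, against 264, 303 and 532 in WT vehicle mice. Most Het mice lay above the WT range, with female 4 and male 5 within it. The log2 fold change was 1.01 ± 0.17 (limma adjusted p = 0.00768), 0.86 ± 0.17 without males 3 and 4 (limma adjusted p = 0.011), and 0.88 ± 0.20 with the olfactory bulb covariate (limma adjusted p = 0.0588). Gfap, an intermediate filament of astrocytes, had 3183, 5201 and 14903 in Het fluoxetine mice, against 2752, 3112 and 4551 in WT vehicle mice. Males 3 and 4 were the highest with 14903 and 14114, female 5 followed with 11194, and the lower Het mice lay within the WT range. It rose by 0.92 ± 0.25 (limma adjusted p = 0.0374), and by 0.59 ± 0.18 without the 2 males (limma adjusted p = 0.0459). Of the other astrocyte genes, S100b and Slc1a2 fell over 20 mice (-0.19 and -0.25) and neither passed without males 3 and 4, and the list of 20 had a median of -0.03. No astrocyte gene, Gfap included, passed with the olfactory bulb covariate in either fit. No microglial gene of 20 passed over 20 mice. Without males 3 and 4, 1 of the 20 rose and 1 fell, against 3.92% of all genes higher and 4.72% lower. Microglial markers, summed, ran over 13758 to 19079 in Het fluoxetine and 15806 to 22388 in WT vehicle mice.

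Neuronal gene lists were lower too, and those of synapse and potassium channel genes fell by smaller median amounts than the sterol genes. Over all genes 3.97% were lower and 2.97% higher, and 4.72% and 3.92% without males 3 and 4. Of 34 genes of the excitatory postsynapse, 10 fell and none rose (median -0.14), and 6 fell without males 3 and 4. Dlg2, a scaffold of the postsynaptic density, changed by -0.28 ± 0.06 (limma adjusted p = 0.023), Shank1, another scaffold, by -0.19 ± 0.05 (limma adjusted p = 0.0296), and Grin2a, an NMDA receptor subunit, by -0.33 ± 0.09 (limma adjusted p = 0.033). Of 29 presynaptic release genes 7 fell, among them the active zone genes Rims1 (-0.37 ± 0.07) and Rims2 (-0.28 ± 0.06), and Sv2c, a vesicle protein, rose (0.65 ± 0.16). Without the 2 males 5 presynaptic genes fell and 1 rose. Of 28 interneuron and GABA synapse genes 8 fell and 1 rose, against 6 and 0 without the 2 males. Of 21 cortical projection neuron and layer markers 4 fell, and 3 without the 2 males. Their median was -0.23 over 20 mice, near the -0.24 of the sterol genes, and -0.19 without the 2 males.

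Among the GABA synapse genes the receptor subunits Gabra4 (-0.33 ± 0.08) and Gabrd (-0.50 ± 0.13) fell. Layer markers that fell were Rasgrf2 (-0.33), Rorb (-0.29), Lypd1 (-0.41) and Calb1 (-0.38). Of 35 potassium channel genes 5 fell and 1 rose (4 and 2 without the 2 males): Kcnc2, a fast repolarising channel, fell (-0.33 ± 0.05, limma adjusted p = 0.0052), and Kcnd3 rose (0.34 ± 0.09, limma adjusted p = 0.0367). With the olfactory bulb covariate none of these 5 lists had a member past the threshold, over 20 mice or without the 2 males, other than Kcnc2 over 20 mice (-0.29 ± 0.06, limma adjusted p = 0.0391). The cortical projection neuron markers summed to 70449 to 96667 in Het fluoxetine mice, against 73478 to 100598 in WT vehicle mice, and none of the 21 was at 0 in any library. The part of olfactory bulb RNA in these falls was not tested beyond that covariate. In bulk tissue fewer cells of a type and less RNA per cell cannot be told apart.

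Olfactory bulb markers were higher in Het fluoxetine than in WT vehicle mice, but not higher than in Het vehicle or WT fluoxetine mice. Of 16 markers 3 rose over 20 mice, Tbx21, Lgr6 and Tshz1, with a median of 1.05, against 2.97% of all genes higher. With males 3 and 4 left out 10 rose, with a median of 1.28, against 3.92% of all genes. None passed with the covariate, but the covariate is the mean of these same 16 markers, so that fit cannot test them. None passed with edgeR over 20 mice. Their summed level had a median of 20115 in Het fluoxetine, 19849 in Het vehicle and 19714 in WT fluoxetine mice, against 4217 in WT vehicle mice. Over WT vehicle mice, 14 of the 16 rose in Het vehicle mice (4.63% of all genes) and 5 in WT fluoxetine mice (0.443%). None passed in Het fluoxetine mice against either of those groups. Lgr6, a receptor of the R-spondin family of ligands, had 194, 809 and 1303 in Het fluoxetine mice, against 121, 179 and 1198 in WT vehicle mice, with WT females 1 and 4 inside the Het range and males 3 and 4 at its foot, and it rose by 1.17 ± 0.35 (limma adjusted p = 0.0475). With the covariate it was 0.19 ± 0.07 (limma adjusted p = 0.126). Lgr6 and Tshz1 were the 2 bulb markers among the 12 largest rises by the level rule. Of those 12, Lgr6, Cacng5, Tshz1 (0.92), Syt6 (0.89), Pcbp3 (0.72), Plekha2 (0.66) and Hap1 (0.62) each had a highest WT value above the Het median. With the covariate their log2 fold changes were 0.19, 0.22, 0.19, 0.51, 0.29, 0.52 and 0.27, and none passed. Lgr6 and Tshz1 are themselves part of the covariate.

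Some neuroblast genes rose as well. Of 20 proliferation and neuroblast genes 4 rose over 20 mice, Sox11 (0.46 ± 0.10), Igfbpl1 (1.16 ± 0.28), Sox4 (0.48 ± 0.12) and Dlx2 (0.86 ± 0.24), all genes of young neurons, against 2.97% of all genes higher, and 8 rose without the 2 males, against 3.92%. None passed with the covariate, and the part of bulb tissue in these rises was not tested beyond it. Of 13 striatal medium spiny neuron markers 3 rose, Penk, Syndig1l and Adora2a, and without the 2 males Penk and Syndig1l rose, with the same shares over all genes. No striatal marker passed with the olfactory bulb covariate in either fit. Penk, the precursor of enkephalin, had 1041, 1607 and 3665 in Het fluoxetine mice, against 868, 1022 and 1902 in WT vehicle mice, and male 3 was the highest with 3665. It rose by 0.68 ± 0.18 (limma adjusted p = 0.0361) and by 0.46 ± 0.13 without males 3 and 4 (limma adjusted p = 0.0433). The striatal markers summed to 8421 to 21143 in Het fluoxetine mice, with males 3 and 4 highest, against 8407 to 10748 in WT vehicle mice. By the mean of the list in log2 units, male 5 was highest with 0.55, and males 3 and 4 had 0.35 and 0.28. WT vehicle mice had at most 0.07. Male 5 remains in the fit without males 3 and 4, and the part of striatal tissue in the rise of Penk was not tested.

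Other genes that changed included a mitochondrial carrier and some ribosomal protein genes. Ucp2, a mitochondrial carrier of the inner membrane, had 629.7, 887 and 1448 in Het fluoxetine mice, against 508, 577 and 658 in WT vehicle mice. Male 2 was the only Het mouse within the WT range, and males 3 and 4 were the highest with 1448 and 1439. It rose by 0.70 ± 0.12 (limma adjusted p = 0.00768), and by 0.54 ± 0.09 without the 2 males (limma adjusted p = 0.00395). Of 83 cytosolic ribosomal protein genes 15 rose by small amounts, with a median of 0.09 over the list, and 10 rose without the 2 males, against 2.97% and 3.92% of all genes. No ribosomal protein gene passed with the olfactory bulb covariate in either fit. Rpl30 changed by 0.15 ± 0.03 (limma adjusted p = 0.0193). Of 77 oxidative phosphorylation genes 1 rose and 2 fell, which are smaller shares than over all genes, and none passed without the 2 males. The mitochondrially encoded mt-Co2, a cytochrome oxidase subunit, which is no member of that list, had 40350.4, 86879 and 112588 in Het fluoxetine mice, lowest, median and highest, against 89524, 115336 and 169547 in WT vehicle mice. WT male 1 stood above the rest, and Het females 1 and 3 were lowest. It fell, with -0.68 ± 0.16 as its log2 fold change (limma adjusted p = 0.0274).

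Large falls outside the lists above were Kcnt2, a sodium-activated potassium channel (-0.67 ± 0.20, limma adjusted p = 0.0486), Kctd16, an auxiliary subunit of GABA-B receptors (-0.57 ± 0.13, limma adjusted p = 0.0232), Ncam2, an adhesion molecule (-0.56 ± 0.14, limma adjusted p = 0.0277), and Lypd6 (-0.56 ± 0.11, limma adjusted p = 0.0124). Males 3 and 4 were low for Kcnt2, with 268 and 353, and without them the log2 fold change was -0.35 ± 0.08 (limma adjusted p = 0.0186). Against 3.97% of all genes lower, thyroid hormone genes fell in 2 of 11, among them Thrb, a thyroid hormone receptor (-0.38). Rcan2 and Ppp3r1 fell among 12 calcineurin pathway genes (-0.28 and -0.22). Sort1 and Ntf3 fell among 8 neurotrophin genes (-0.22 and -0.83). Each of these 3 lists again had 2 members that fell without males 3 and 4, against 4.72% of all genes. No member of these 3 lists passed with the olfactory bulb covariate in either fit.

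Other lists had 1 or 2 members past the threshold over 20 mice, where 2.97% of all genes were higher and 3.97% lower, and a single member of a list of 17 to 32 genes is near those shares. The shares over all genes were 3.92% and 4.72% without males 3 and 4. Among 15 genes of perineuronal nets and matrix 2 rose: Acan, the core proteoglycan of the nets (0.90 ± 0.22, limma adjusted p = 0.0272), averaged 201 ± 78.3 in Het fluoxetine and 107 ± 52.6 in WT vehicle mice, and Tnc, a matrix glycoprotein, changed by 0.46 ± 0.14 (limma adjusted p = 0.0458). Acan rose without males 3 and 4 too (0.73 ± 0.20), and neither passed with the olfactory bulb covariate. Among 28 chromatin and transcription regulators linked to autism, Chd8 (0.17) and Ehmt1 (0.18) rose, and 4 rose without the 2 males. None of these regulators passed with the olfactory bulb covariate in either fit. Among 16 circadian clock genes Cry2 (-0.12) and Bhlhe40 (-0.29) fell, and without the 2 males 5 fell and 1 rose. Stress lists were mixed: Gadd45g rose (0.38) and Dnajb1 fell (-0.21) among 19 heat shock and cell stress genes, and Creld2 (0.32) and Dnajb11 (0.15) rose among 25 of the unfolded protein response. Without the 2 males the calls of Gadd45g and Dnajb11 were lost, and 2 heat shock and cell stress genes fell, while 1 gene of the unfolded protein response rose. Apc fell (-0.23) among 17 genes of the GSK3 and beta-catenin pathway, and Ctsl rose (0.12) among 32 lysosomal genes. The calls of Apc and Ctsl were lost without males 3 and 4, where 1 GSK3 pathway gene rose, none fell, and no lysosomal gene passed.

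Serotonin receptors, through which the transmitter spared by fluoxetine acts, had no member past the threshold over 20 mice. Of 19 serotonin genes tested 1 rose, Slc18a2, the vesicular monoamine transporter, by 1.13 ± 0.32 (limma adjusted p = 0.0405), and with the olfactory bulb covariate it did not pass (0.30 ± 0.15, limma adjusted p = 0.201). A count of 1 in 19 is near the 2.97% of all genes that were higher. Without males 3 and 4, 1 of the 19 rose and none fell, against 3.92% of all genes higher. Htr1a had -0.38 ± 0.15 (limma adjusted p = 0.119) and Htr2a 0.05 ± 0.07 (limma adjusted p = 0.689), which did not pass. Htr2c averaged 1233 ± 399 in Het fluoxetine and 1238 ± 463 in WT vehicle mice (SD, n = 10 each) and did not pass either (limma adjusted p = 0.994). Gsk3b, a kinase of the Wnt pathway, had -0.09 ± 0.04 (limma adjusted p = 0.204), and Rcan1, a calcineurin regulator, -0.08 ± 0.07 (limma adjusted p = 0.524). Bdnf, a neurotrophin, had -0.05 ± 0.16 (limma adjusted p = 0.871) over 20 mice, where male 3 was highest with 2579, and -0.27 ± 0.10 without males 3 and 4 (limma adjusted p = 0.0891). Over 20 mice no member passed among myelin, oligodendrocyte precursor, endothelial, meningeal, choroid plexus, haemoglobin, insulin-like growth factor, DREAM complex or DYRK kinase genes. Without males 3 and 4, 1 of 5 DYRK kinase genes rose and 1 fell. Of 12 insulin-like growth factor genes 1 rose and 1 fell, and 1 of 17 DREAM complex genes rose. The other lists named here again had none, and over all genes 3.92% were higher and 4.72% lower.

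Calls within 1 sex were few. In females limma called 2 of 17313 genes, Stard4 (-0.57 ± 0.09, adjusted p = 0.0186) and Cyp51 (-0.50 ± 0.07, adjusted p = 0.0186), both lower (0.0116% of genes), with 1772 at an unadjusted p under 0.05. In males limma called 0, with 4591 at an unadjusted p under 0.05, and edgeR called 0. That count rested on single mice: limma called 2442 genes in males without Het fluoxetine male 5 and 1491 without male 1. In males Stard4 had -0.41 ± 0.09 (limma adjusted p = 0.0658) and Cyp51 -0.31 ± 0.07 (limma adjusted p = 0.0658). Without males 3 and 4, whose spread enters the error of both sexes, limma called 38 genes in females (0.221%), 11 higher (0.064%) and 27 lower (0.157%), and 8 of the 24 sterol genes and 4 of the 29 immediate early genes were among these. The difference between the sexes was called for 0 of 17313 genes by limma and by edgeR, with 922 at an unadjusted p under 0.05 in limma. Arc had -1.02 ± 0.23 in females and -0.87 ± 0.23 in males, and Nr3c1 had -0.41 ± 0.11 in females and -0.61 ± 0.11 in males. Neither gene passed within either sex over 20 mice.

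The effect of fluoxetine in Het mice less that in WT mice, the genotype by drug interaction, was called for 0 of 17617 genes by limma, with 3349 at an unadjusted p under 0.05, and for 0 by edgeR. Without Het vehicle male 1 limma called 685, and without Het fluoxetine male 2 it called 545. Fluoxetine over vehicle gave 158 calls in Het mice (0.897%), 63 higher (0.358%) and 95 lower (0.539%). It gave 128 in WT mice (0.727%), 78 higher (0.443%) and 50 lower (0.284%), and Het over WT under vehicle gave 1544 (8.76%). For Nr4a3 the log2 fold change with fluoxetine was -1.09 ± 0.14 in Het mice and -0.67 ± 0.15 in WT mice, an interaction of -0.42 ± 0.21 (limma adjusted p = 0.264). For Stard4 the interaction was 0.16 ± 0.08 (limma adjusted p = 0.27), and for Fkbp5 0.42 ± 0.30 (limma adjusted p = 0.437).

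Of the 1203 genes called, 13 were called with the same sign in all 4 fits, that is, with and without males 3 and 4 and with and without the olfactory bulb covariate. The 9 that fell were Stard4, Cyp51 and Hmgcs1 of the sterol genes, Arc, Nr4a1 and Nr4a3 of the immediate early genes, Spry4, Nr3c1, and Sox8, a transcription factor of the oligodendrocyte lineage (-0.25 ± 0.05, limma adjusted p = 0.0126). The 4 that rose were Ucp2, Wipf3, an actin regulator (0.40 ± 0.08, limma adjusted p = 0.0161), Pde9a, a phosphodiesterase of cGMP (0.39 ± 0.09, limma adjusted p = 0.0261), and Mrtfa, a coactivator controlled by actin (0.19 ± 0.05, limma adjusted p = 0.0276). The ranges of the 10 Het fluoxetine and 10 WT vehicle mice did not overlap for 15 genes (0.0866% of those tested), among them Cyp51, Sqle, Nr4a3, Sox8 and Fkbp5. Without males 3 and 4 this held for 36 (0.208%).

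The calls lost or gained when males 3 and 4 were left out were of several kinds. Leaving out mice also changes the error, so a lost call need not mean a changed log2 fold change, as for Grm4 and Chd7 below. Of the 1203, 356 did not pass without them. By the level rule the largest of these were Nnat (0.58 over 20 mice and 0.44 without the 2), Rassf8 (0.56 and 0.48), Egr1 (-0.53 and -0.39), Chd7 (0.50 and 0.46), Prex2 (-0.49 and -0.29), Rnd1 (-0.48 and -0.34), Ltbp3 (0.47 and 0.39) and Grm4 (0.47 and 0.45). Those that passed only without them included the olfactory bulb markers Cdhr1 (2.01 without the 2), Th (1.38 and 1.67), Sp8 (0.98 and 1.29), Lgr5 (0.96 and 1.27) and Pbx3 (0.96 and 1.20), with Dlx1, Inhba and Fkbp5.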

How the data were processed

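Libraries of polyadenylated RNA came from a strand-specific kit, per the labels' protocols. The submitters' processing notes name Salmon 0.11.2, R 3.6.0, DESeq2 1.19.11 and the GRCm38 build, without roles. The authors deposited 1 table of 18088 genes whose values are a signal, counts divided by a library size factor. Dividing by each library's smallest step gave whole counts for 100% of values within 0.01; for 3 libraries of the series the step was too close to 1 to show this alone. Totals had a median of 27514079 counts over the 20 libraries. All 40 replicate pairs differed by more than sampling noise (chi-square per gene 3.17 to 87.3). 11 identifiers lacked a symbol, and 20 symbols stood for several.

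Log2(value + 1) was fitted with limma 3.58.1 (R 4.3.3, trend on the mean) for genes that reached 10 in 5 libraries or more, with group and sex as terms, and p-values were adjusted by Benjamini-Hochberg at 0.05. Values per sex came from 4 group means of the same 20 libraries, and the interaction and the comparisons of other groups from 8 group means of 39. The pseudocount understates changes of low genes. edgeR 4.0.16 on recovered reads was an alternative, beside filters, scalings, covariates and left-out libraries. The replicate numbers showed no clear pairing of the mice. On simulated counts for this comparison (17313 genes) limma recovered 54% of genes changed 1.25-fold and 76% at 1.5-fold, with 14 false calls. Whether these rates hold for the mice themselves, where leaving out 1 library gave 239 to 2248 calls, was not tested.

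The comparison, gene lists and alternatives were chosen with earlier results of these data known. Named were Dyrk1a; the 12 largest rises and falls called with and without Het fluoxetine males 3 and 4, at or above the median level, off X and Y; up to 4 members of smallest p per list; the genes Arc, Bdnf, Fkbp5, Fos, Gsk3b, Rcan1, Htr1a, Htr2a and Htr2c (Slc6a4 was not analysed here); and up to 8 lost or gained calls. Other names were chosen after their values were seen. Some members counted in the lists are not reported here by name.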

Additional observations from a re-analysis of the deposited data

Results flagged for a closer look

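In 118 groups of 10 mice, 1 mouse lay apart from the others by Dixon's criterion 10 times, where chance gives about 1 in 20. Het fluoxetine male 3 accounted for 6 of them: Fkbp5 at 8496 normalised counts, against at most 3668 in the other Het fluoxetine mice, Insig1 at 3720.4 (others at most 1920.2), Penk at 3665 (others at most 2312), Bdnf at 2579 (others at most 1629), and list means of 1.54 for glucocorticoid responsive and 0.26 for sterol genes. Rsad2 stood apart in Het fluoxetine male 4 with 126 and in WT vehicle male 1 with 52.2. Ifit1 stood apart in Het fluoxetine male 2 with 191. The mitochondrial transcript mt-Co2 stood apart in WT vehicle male 1 with 169547 (others at most 130815).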

How the results depend on the processing

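The count of 1203 genes stayed within 1.5 times with a pseudocount of 5, without a filter, at a mean value of 100 or more, with TMM or quantile scaling, without the sex term, with edgeR (1042) and, an alternative chosen after seeing the data, with edgeR without Het fluoxetine males 3 and 4 (1344). It was 2563 with array weights, 3411 with all 59 libraries in the fit, 54 with the olfactory bulb covariate and 51 with that covariate and without the 2 males; the cause was not tested. Higher genes made up 42.8% of calls, and 23.5% in the last of these. Leaving out 1 library gave 239 to 2248 calls. It gave 344 and 321 without Het fluoxetine females 1 and 2, 500 and 521 without Het fluoxetine males 2 and 4, 496, 271, 2248 and 375 without WT vehicle females 2 to 5, and 239, 436, 412 and 521 without WT vehicle males 2 to 5. In females the 2 calls became 38 without the 2 males, 35 with edgeR without them, 288 with array weights, 0 with the covariate, 21 with both, 9 with all 59 libraries, and 0 to 4 when 1 library was left out. For Het fluoxetine versus WT vehicle, males, the 0 calls became 3 with array weights, 2449 with the covariate, 3739 with all 59 libraries, and 0 to 2442 when 1 library was left out. The female minus male difference gave 0 to 0. The interaction gave 3207 calls with array weights, and 0 to 685 when 1 library was left out.

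Replicate numbers showed no clear pairing of the mice. Deviations of same-numbered mice of different groups correlated at -0.26 to 0.31, with a median of 0.03, and over 0.1 in 8 of 30 pairs. For different numbers they correlated at -0.35 to 0.37, with a median of -0.01, and over 0.1 in 22 of 120 pairs. With the replicate block 965 genes were called. Of 113 named genes called, 89 passed without males 3 and 4, 18 with the covariate, 14 with both, and 36 whichever single library was left out. Camk2a turned to 0.031 with quantile scaling, and Gadd45b to -0.34 without the 2 males and to -0.33 with edgeR without them. Depth was similar between groups; the olfactory bulb share and the 2 males limit what these 20 mice can show.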
